A study of Mus musculus with 3 samples.

Results

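The 10 genes described here encode secreted growth and colony-stimulating factors: Csf1, Csf2 and Csf3, the angiogenic and mesenchymal factors Vegfa and Pdgfb, the epidermal growth factor (EGF) family ligands Hbegf, Areg and Ereg, insulin-like growth factor Igf1, and the interleukin-6 family cytokine Osm. They were chosen by symbol, and all 10 were found among the 55536 annotated genes of the deposited gene tables. Their RNA was measured in 1 group of 3 biological replicates, by RNA-seq of total RNA with the ribosomal part depleted, in the cytosolic fraction of bone-marrow-derived macrophages of C57BL/6J mice. These are primary cells grown from marrow precursors in culture, and their age and sex were not collected. Lipid A, the part of bacterial lipopolysaccharide that activates Toll-like receptor 4, was given at 100 ng/ml for 12 h, removed for 12 h, and given again at 100 ng/ml for 30 min, and each library was made from 1 µg of RNA.

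All 3 libraries passed through both exposures and carried the same donor entry. SDs therefore measure only the spread between these libraries, which may be technical, and no value can be set against resting cells or against the level before the last exposure. P-values for differences between libraries are set against counting error alone, and a difference they call may be technical. Those for the order of factors rest on these 3 libraries. In bulk RNA, fewer cells making a transcript and less of it per cell cannot be told apart. Annotated genes received 28759407, 54709008 and 49878183 expected counts in replicates 1, 2 and 3. Expected counts are reads assigned to a gene by a model, and TPM is the share of transcripts after division of the counts by length, which allows levels of different genes to be compared. A gene was called detected at 1 TPM or more in every library. All 8 macrophage markers were detected, with summed levels of 5079 TPM, 4812 TPM and 5045 TPM in replicates 1, 2 and 3. Markers of other lineages, 37 genes in 8 lists, were mostly below the limit, and 2 were detected, the platelet chemokine gene Pf4 at 91.1 ± 24.0 TPM (SD, n = 3) and the endothelial receptor gene Kdr, which is also a receptor of VEGF-A and is described with it, and 7 had 0 counts in every library.

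Colony-stimulating factors drive the survival, growth and differentiation of myeloid cells: M-CSF, the product of Csf1, sustains macrophages, GM-CSF, the product of Csf2, acts on granulocytes and macrophages, and G-CSF, the product of Csf3, on neutrophils. Macrophages are also known as a source of factors for wound repair, which act on vessels, mesenchymal cells and epithelium. Messages of several of these factors are short-lived, and AU-rich elements in their 3′ untranslated regions (3′ UTRs) are bound by proteins such as tristetraprolin that speed decay.

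Levels of the 10 genes spanned from 52.2 TPM down to a gene listed at 0 TPM. Detected were 5 of 10, Igf1, Csf1, Vegfa, Osm and Pdgfb, where 41.2% of the 22015 nuclear protein-coding genes were detected. The median of the mean levels was 0.845 TPM over the 10 genes and 0.143 TPM over all nuclear protein-coding genes. The other 5, Hbegf, Csf2, Areg, Csf3 and Ereg, had between 1 and 78 expected counts summed over the 3 libraries.

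**Figure D1:**
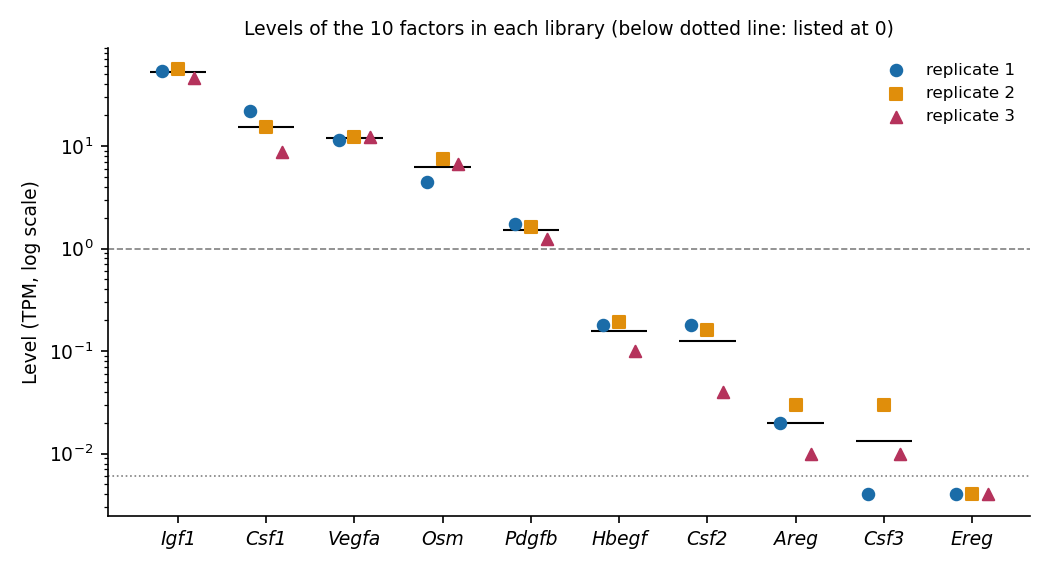
Level of each of the 10 factors in TPM on a log scale, with 1 point per library and a bar at the mean; the dashed line marks 1 TPM and values listed at 0 are drawn below the dotted line. Igf1, Csf1, Vegfa, Osm and Pdgfb lie above 1 TPM in every library, and the other 5 genes lie below it in every library.

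Among the colony-stimulating factors, Csf1 was the detected one, and its level differed between libraries. Csf1 (ENSMUSG00000014599.10, chr3:107741048-107760469 of mm10, minus strand) stood at 22.1 TPM in replicate 1, 15.3 TPM in replicate 2 and 8.74 TPM in replicate 3, from 3431, 5152 and 2427 expected counts. The mean was 15.4 ± 6.69 TPM (SD, n = 3), which is rank 2873 among nuclear protein-coding genes. The value was highest in replicate 1 and lowest in replicate 3, and the credible bounds deposited with the values, at a level not given in the sources used here, do not overlap between any of the libraries.

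Csf2 and Csf3 were each at a few counts. Csf2 (ENSMUSG00000018916.5, chr11:54247271-54249667, minus strand) had 5, 9 and 2 expected counts in replicates 1, 2 and 3, at 0.18, 0.16 and 0.04 TPM. The exact 95% Poisson intervals of these counts, 1.62 to 11.7, 4.12 to 17.1 and 0.242 to 7.22, overlap, and like all count limits here they cover counting error only. An annotated antisense gene that overlaps Csf2, Gm12223, was listed at 0 TPM. Csf3 (ENSMUSG00000038067.2, chr11:98701263-98703629, plus strand) had 0, 4 and 1 expected counts. By the limit of 3 counts that is used here for a count of 0, replicate 1 allows up to 0.0530 TPM, the two-sided exact 95% interval reaches 3.69 counts, and the other libraries stood at 0.03 and 0.01 TPM.

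The 3 colony-stimulating factor messages differ in the AU-rich stretch of their 3′ UTR, shown here as a 30-base window of the annotated message with the most ATTTA pentamers. Capitals mark the pentamers, the letters are those of the GENCODE M21 transcripts written as DNA, and T stands for U in the RNA. The windows lie at chr11:54247324-54247353 (minus strand) for Csf2, at chr11:98702988-98703017 (plus strand) for Csf3 and at chr3:107741102-107741131 (minus strand) for Csf1, all on mm10.
Csf2: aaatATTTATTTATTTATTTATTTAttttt
Csf3: gtttATTTAtctctATTTAatATTTAtgca
Csf1: aaggtcATTTAaatatctATTTAaaaaata
The Csf2 window holds 5 pentamers that overlap in 1 run, the Csf3 window holds 3 separate ones, and the Csf1 window holds 2. Over the whole 3′ UTR, Csf2 has 9 in 317 bases, Csf3 has 6 in 669 bases and Csf1, in its most abundant transcript, has 4 in 2111 bases. The pentamer density was 28.4, 8.97 and 1.89 per kb for Csf2, Csf3 and Csf1, and their summed expected counts were 16, 5 and 11010. These counts are not scaled by length, and a link between density and level was not tested.

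Promoter sequence from RefSeq on GRCm38.p6 was matched for 5 of the factors, and the 250 bases upstream of the annotated start of Csf1 and of the outermost Vegfa entry are printed because these detected factors hold a match to the kappa-B consensus there. This is the binding motif of NF-kB, a transcription factor that Toll-like receptor 4 activates, and capitals mark the match. Both sequences read along the minus strand, at chr3:107760470-107760719 for Csf1 and chr17:46032378-46032627 for Vegfa.
Csf1: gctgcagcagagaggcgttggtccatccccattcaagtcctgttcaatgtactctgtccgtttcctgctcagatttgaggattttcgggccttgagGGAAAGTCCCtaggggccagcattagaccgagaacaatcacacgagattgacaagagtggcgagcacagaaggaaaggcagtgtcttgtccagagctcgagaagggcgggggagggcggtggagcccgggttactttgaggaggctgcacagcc
Vegfa: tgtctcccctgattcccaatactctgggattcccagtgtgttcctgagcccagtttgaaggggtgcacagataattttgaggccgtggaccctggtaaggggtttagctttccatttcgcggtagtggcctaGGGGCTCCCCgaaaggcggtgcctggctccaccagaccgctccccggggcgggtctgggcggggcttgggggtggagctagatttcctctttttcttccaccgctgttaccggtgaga
The matches begin at position -154 in Csf1, where the consensus reads on the opposite strand, and at -118 in Vegfa, counted from the annotated start. The search covered both strands of windows of 300 bases for the kappa-B consensus, the AP-1 motif TGANTCA with C or G at N, the cyclic AMP response element TGACGTCA and TATAAA. Of 32851 RefSeq promoters 4.51% hold the kappa-B consensus, 5.20% the AP-1 motif, 1.79% the cyclic AMP response element and 13.6% TATAAA. Areg has TGACGTCA at -61 and TATAAA at -31. In the windows of Csf2 and Igf1 none of these motifs was matched, which says only that the letters are not in these windows. The RefSeq start of Csf2 lies 232 bases upstream of the start of the gene in GENCODE M21, and the Igf1 window lies within annotated exons.

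Csf1 messages came mostly from transcripts that encode the long form of M-CSF. Transcripts coding for 552 residues, Csf1-201 and Csf1-203, which share their coding sequence, made up 67.6%, 76.4% and 76.0% of the Csf1 level in replicates 1, 2 and 3, or 73.3% ± 4.98 (SD, n = 3). The shares were lowest in replicate 1. Csf1-202, with 257 residues, made up 19.9% ± 3.01, and in mammals such short forms are known to stay at the cell surface, whereas the long form is processed to a secreted protein. The share of the short form depended on the quantification, with 6.20% ± 1.47 in the other deposited transcript table, where the 552-residue class held 78.4% ± 3.06. Csf1-201 has 2111 bases of 3′ UTR and Csf1-203 has 259.

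Vegfa, the main growth factor of blood vessel endothelium, was detected at a level that varied little in the deposited per-gene values. Vegfa (ENSMUSG00000023951.17, chr17:46016993-46032369, minus strand) stood at 11.5, 12.3 and 12.3 TPM in replicates 1, 2 and 3, from 1600, 3537 and 2795 expected counts. The mean was 12.0 ± 0.457 TPM (SD, n = 3). Replicate 1 was the lowest in these values, by a small margin. In the other deposited table Vegfa stood at 5.78, 7.34 and 4.93 TPM in replicates 1, 2 and 3, with replicate 3 the lowest. Against the first values, those of the other detected factors were also reduced most in replicate 3, such as Igf1 at 30.7, 36.7 and 18.1 TPM. On counts of that table scaled to a common library size, the Vegfa range was 1.24-fold.

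Transcript use of Vegfa was split between 2 coding classes. Vegfa-202, whose annotated coding sequence starts at CTG and has 368 residues, held 65.9%, 62.1% and 60.0% of the Vegfa level in replicates 1, 2 and 3. Vegfa-201, which starts at ATG and has 146 residues, held 26.7%, 31.4% and 23.2%. Vegfa-202, the transcript with the longer annotated coding sequence, held the larger share in every library. Transcript shares do not show which start codon is used. In the other deposited table the means were 50.5% ± 5.26 for Vegfa-202, 15.2% ± 2.99 for Vegfa-201 and 19.9% ± 1.25 for Vegfa-207, a CTG-started form of 392 residues, against 62.7% ± 2.97, 27.1% ± 4.15 and 5.53% ± 1.80 in the first, so the split among them depends on the quantification.

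Retained-intron transcripts of Vegfa took a larger share in replicate 3. They held 1.74%, 2.85% and 9.54% of the Vegfa level in replicates 1, 2 and 3, from 6.19, 19.5 and 51.9 expected counts, and 8.12%, 10.5% and 21.2% in the other table. Replicate 3 was highest in both tables. The nuclear RNAs Malat1, at 304, 182 and 638 TPM, and Neat1, at 19.9, 12.7 and 47.7 TPM, were also highest in replicate 3, and their part in this share was not tested. Over all genes the retained-intron share was 3.28%, 3.10% and 3.79%. Other factors did not follow this order: the retained-intron share of Csf1 was lowest in replicate 3, at 0.949%, 0.458% and 0.343% from 19.6, 13.0 and 4.13 expected counts, and that of Pdgfb was highest in replicate 3 in the first table, at 9.36%, 8.59% and 12.8%, and in replicate 1 in the other, at 14.5%, 11.2% and 13.1%.

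Pdgfb, the B chain of platelet-derived growth factor, which acts on mesenchymal cells and pericytes, was the lowest of the detected factors. Pdgfb (ENSMUSG00000000489.7, chr15:79995874-80014977, minus strand) stood at 1.72, 1.63 and 1.25 TPM in replicates 1, 2 and 3, from 217, 416 and 277 expected counts, a mean of 1.53 ± 0.249 TPM (SD, n = 3). Replicate 3 was the lowest. In the other deposited table its mean of 0.735 ± 0.257 TPM falls below the 1 TPM limit. TPM there was 0.480 times the first for Pdgfb and 0.448 times for the median detected gene. The same limit is therefore stricter there. The main coding transcript of Pdgfb, Pdgfb-201, held 88.5% ± 1.85 of the Pdgfb level and a retained-intron transcript held 10.2% ± 2.24.

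**Figure D2:**
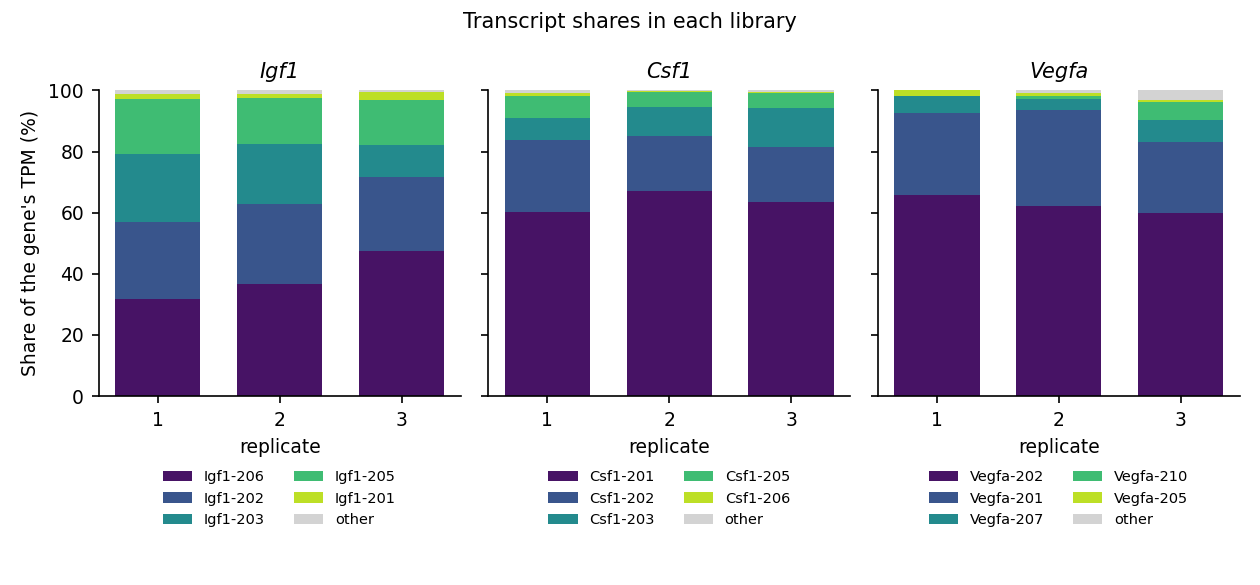
Share of each gene's TPM in percent taken by its transcripts in replicates 1, 2 and 3, as stacked bars of the 5 most abundant transcripts, with the rest pooled as other. The Csf1 bars are led by Csf1-201 at 63.6% on average over libraries, the Vegfa bars by Vegfa-202 at 62.7%, and the Igf1 bars are divided among several transcripts.

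All 3 EGF family ligands, which are made as membrane-anchored precursors and released by cleavage, were below 1 TPM. Hbegf (ENSMUSG00000024486.6), heparin-binding EGF-like growth factor, stood at 0.18, 0.19 and 0.10 TPM in replicates 1, 2 and 3, from 18, 42 and 18 expected counts, or 0.157 ± 0.0493 TPM (SD, n = 3). It was lowest in replicate 3. Areg (ENSMUSG00000029378.5, chr5:91139599-91148432, plus strand), amphiregulin, had 1, 3 and 1 expected counts at 0.02, 0.03 and 0.01 TPM. Ereg (ENSMUSG00000029377.5, chr5:91074622-91093646, plus strand), epiregulin, was listed at 0 TPM in every library, with 0, 0 and 1 expected counts, and 3 counts would correspond to 0.0161, 0.00769 and 0.00912 TPM. At these counts a difference between libraries in Areg or Ereg was not detectable. Gm19610, an annotated antisense gene that overlaps Ereg, was also listed at 0 TPM.

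Igf1, insulin-like growth factor 1, a growth and survival factor that liver and many other tissues make, was the most abundant of the 10. Igf1 (ENSMUSG00000020053.18, chr10:87858265-87937042, plus strand) stood at 54.5, 56.4 and 45.9 TPM in replicates 1, 2 and 3, from 6038, 13240 and 8377 expected counts. The mean of 52.2 ± 5.60 TPM (SD, n = 3) is rank 866 among nuclear protein-coding genes. Replicate 3 was the lowest.

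Several coding transcripts shared the Igf1 level. Igf1-206, which codes for 143 residues, held 31.8%, 36.8% and 47.4% in replicates 1, 2 and 3, and Igf1-203, with 159 residues, held 22.3%, 19.4% and 10.4%. Replicate 3 was highest for Igf1-206 and lowest for Igf1-203, in the other deposited table as well. Igf1-202, with 153 residues and a 3′ UTR of 6308 bases, held 25.2% ± 0.873, and Igf1-205, with 137 residues, held 15.9% ± 1.87. In the other table Igf1-202 held 19.1% ± 0.156 and Igf1-205 held 26.5% ± 0.870, so their order depends on the quantification.

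Osm, oncostatin M, a cytokine of the interleukin-6 family that activated macrophages and neutrophils are known to make, was of middle rank. Osm (ENSMUSG00000058755.3, chr11:4236420-4241026, plus strand) stood at 4.41, 7.51 and 6.62 TPM in replicates 1, 2 and 3, from 424, 1508 and 1115 expected counts, a mean of 6.18 ± 1.60 TPM (SD, n = 3). The lowest value was that of replicate 1. Osm-201, which codes for 263 residues, held 97.2% ± 0.637 of its level.

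The order of neighbouring factors was compared within each library, as the difference of log2(TPM + 0.1), and was said to exceed the spread where all 3 libraries shared the sign and the mean exceeded 3 SD. Neighbours were paired in the order of their mean levels in these same libraries, so the direction of a difference is no independent result. Igf1 exceeded Csf1 by 1.85 ± 0.54, Osm exceeded Pdgfb by 1.92 ± 0.54 and Pdgfb exceeded Hbegf by 2.68 ± 0.09, all beyond the spread. Hbegf was near the pseudocount of 0.1, so the size and SD of its difference from Pdgfb depend on it. With a pseudocount of 1 that difference was 1.13 ± 0.09. Csf1 and Vegfa did not differ beyond it, with 0.26 ± 0.71 and Csf1 higher in 2 of 3 libraries. Vegfa was above Osm by 0.98 ± 0.34 in 3 of 3 libraries, which is within 3 SD, and the neighbours below Hbegf did not differ beyond their spread. For each of the 3 pairs beyond the spread a two-sided exact sign-flip test gave p = 0.25, the lowest value that 3 libraries allow.

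How far the libraries differed was measured on CPM, expected counts scaled to a common library size, after TMM normalization, which sets the size from the bulk of genes. A chi-square test asked whether a gene's counts differed between libraries beyond counting error, wherever the mean over libraries reached 10 counts, with p-values adjusted by Benjamini-Hochberg over all genes tested. The call was made for 6 of the 6 factors deep enough to be tested and for 66.2% of the 13410 genes tested. Small differences pass at high counts, so the size is given with each. The 4 factors too low to be tested were Csf2, Areg, Csf3 and Ereg.

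Csf1 had the widest range of the 6 with all 3 libraries. It stood at 121, 92.9 and 48.6 CPM in replicates 1, 2 and 3, a 2.49-fold range (chi-square test with Benjamini-Hochberg adjustment, adjusted p = 1.01e-277). Its coefficient of variation was 41.8%, against a median of 11.5% over all genes tested, and its edgeR biological coefficient of variation of 0.256 was above the trend of 0.117 at its abundance. Without replicate 3 its range was 1.29-fold, below the 1.84-fold of Osm, and without replicate 1 it was 1.91-fold, below the 2.10-fold of Hbegf. Both detected markers of other lineages were also highest in replicate 1 and lowest in replicate 3, with Pf4 at 117.3, 85.7 and 70.2 TPM and Kdr at 7.26, 3.01 and 2.47 TPM. The 4 platelet markers summed to 117.5, 85.9 and 70.5 TPM and the 4 endothelial markers to 8.46, 3.61 and 3.60 TPM, sums that rest almost wholly on Pf4 and Kdr. The other members did not follow this order: Pecam1 stood at 0.89, 0.48 and 0.93 TPM, Cdh5 at 0.30, 0.12 and 0.20 TPM, Ppbp at 0.15, 0.09 and 0.18 TPM and Itga2b at 0.02, 0.05 and 0.10 TPM, and Gp9 and Tek were at most 0.03 TPM in any library. Whether platelet or endothelial cells were present, or had a part in the Csf1 difference, was not tested.

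Osm stood at 15.0, 27.2 and 22.3 CPM, a 1.82-fold range with replicate 1 lowest (chi-square test with Benjamini-Hochberg adjustment, adjusted p = 9.61e-27). Igf1 stood at 213, 239 and 168 CPM, a 1.42-fold range with replicate 3 lowest (adjusted p = 1.53e-140 in the same chi-square test). Pdgfb, at 7.66, 7.51 and 5.54 CPM, had a 1.38-fold range (chi-square adjusted p = 0.000209) that fell to 1.01-fold without replicate 3, where the call was lost. Its lowest library was replicate 3. Vegfa, at 56.5, 63.8 and 55.9 CPM, had the smallest range of the 6, 1.14-fold (chi-square adjusted p = 3.12e-07), and the call was lost without replicate 2 (adjusted p = 0.837). Hbegf, at 0.635, 0.758 and 0.360 CPM, had a 2.10-fold range close to the limit (chi-square adjusted p = 0.0406). Its call was lost with no filter on low counts (chi-square adjusted p = 0.0613), without replicate 2 (adjusted p = 0.154) and without replicate 3, where the range was 1.20-fold (adjusted p = 0.621).

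Replicate 3 was the lowest library for Csf1, Hbegf, Pdgfb and Igf1, and replicate 1 for Osm. For Vegfa replicates 1 and 3 were within 1.01-fold of each other in CPM, and replicate 1 was the lower in per-gene TPM. Against the mean of the others, the log2 ratio of replicate 3 was -1.14 for Csf1, -0.79 for Hbegf, -0.44 for Pdgfb, -0.43 for Igf1 and -0.10 for Vegfa, and 0.08 for Osm. At least 1.5-fold lower were 2 of 6, Csf1 and Hbegf, against 4.75% of all genes tested, and at least 1.5-fold higher were 0 of 6, against 7.24%. The median was -0.44 over the 6 factors and -0.02 over all genes tested. These are values of 1 library against the mean of the others, with no replicate check, and Malat1 and Neat1 were also highest in that library. Replicate 3 was chosen for this comparison with an earlier result of these data known, so these counts and medians are no independent result.

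**Figure D3:**
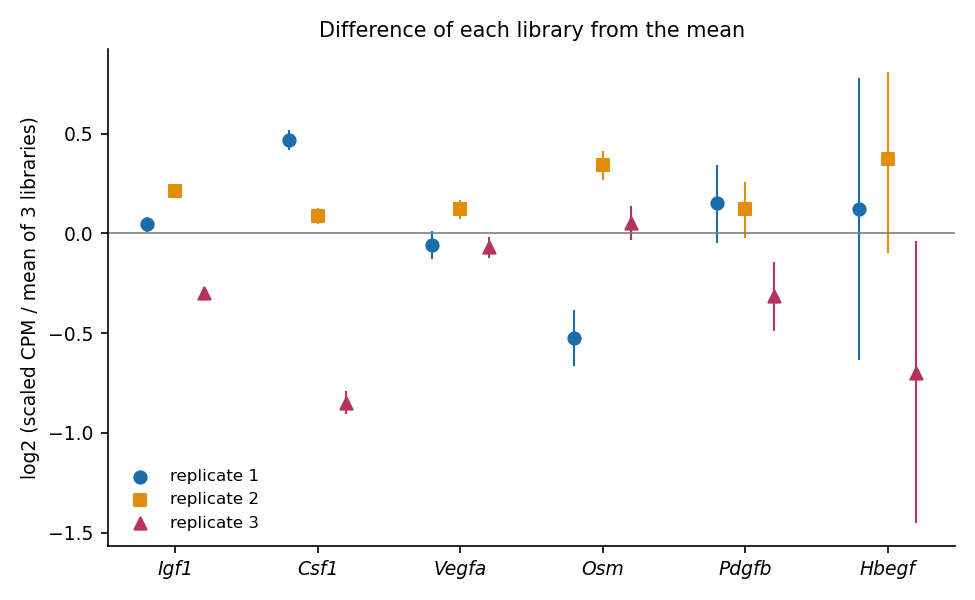
Difference of each library from the mean of the 3 libraries, as log2 of TMM-scaled CPM over their mean, for the 6 factors with enough counts; each point is 1 library and its vertical line the exact 95% Poisson interval of its count. Replicate 3 lies lowest for Igf1, Csf1, Pdgfb and Hbegf, replicate 1 lies lowest for Osm, and for Vegfa replicates 1 and 3 lie close together.

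Receptor messages in the same libraries were compared with those of the factors. Of 20 receptor genes 10 were detected, and 1, Erbb4, had 0 counts in every library. Csf1r, the M-CSF receptor, was the highest at 130.4 ± 27.2 TPM (SD, n = 3), and Nrp2 and Nrp1, co-receptors of VEGF, followed at 88.7 ± 11.0 and 52.8 ± 9.12 TPM. The Csf2rb and Csf2rb2 genes, near-identical copies that encode the shared and the interleukin-3-specific beta chain, stood at 30.9 ± 1.54 and 29.8 ± 3.50 TPM, and how the model divides reads between them is uncertain. Csf3r, the G-CSF receptor, stood at 29.5 ± 7.13 TPM and Csf2ra at 25.6 ± 2.21 TPM.

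Detected receptors of the remaining factors were fewer. Il6st, the gp130 subunit that Osm receptors share, was at 13.4 ± 1.99 TPM, Insr at 3.73 ± 0.412 TPM, and Kdr, the VEGF receptor VEGFR2, at 7.26, 3.01 and 2.47 TPM in replicates 1, 2 and 3. Replicate 1 was the highest for Kdr. Not detected were Igf1r at 0.267 ± 0.0451 TPM, Lifr at 0.350 ± 0.0557 TPM and Erbb3 at 0.673 ± 0.0751 TPM. Flt1 averaged 0.110 TPM, and Egfr, Osmr, Pdgfra and Pdgfrb were each at most 0.04 TPM in any library. Erbb2 was listed at 0 TPM with 1 count in each library.

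**Figure D4:**
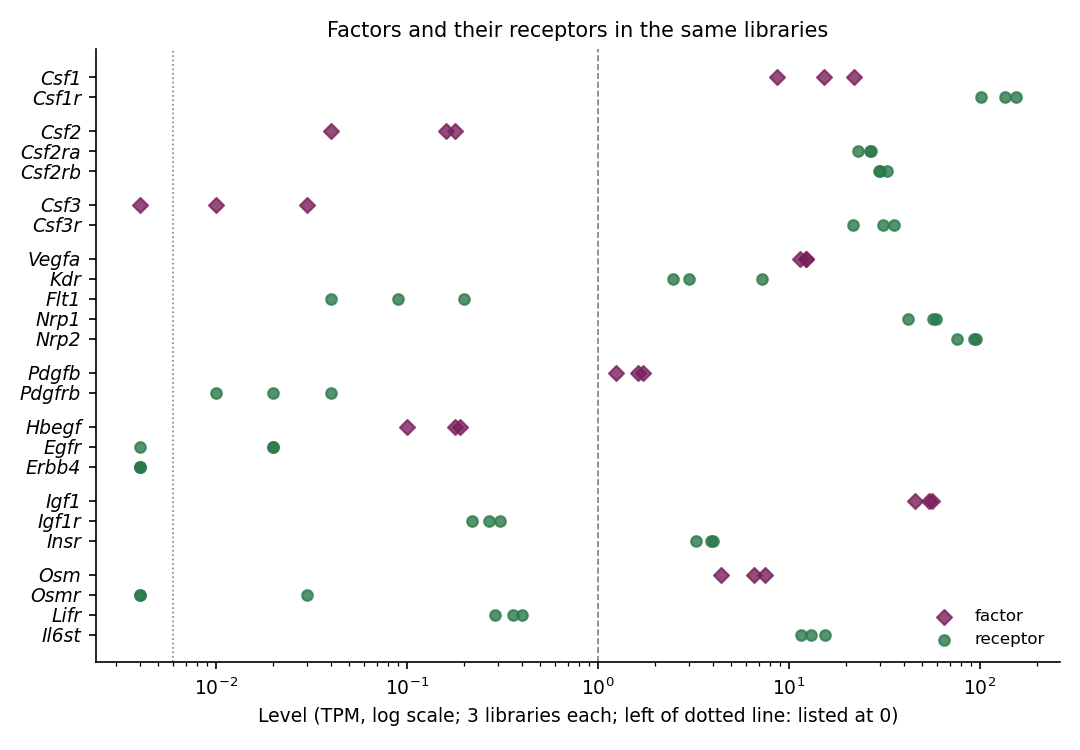
Level in TPM on a log scale of 8 factors and 16 of their receptors, with 1 point per library; the dashed line marks 1 TPM and values listed at 0 are drawn left of the dotted line. Csf1r, at 101 to 155 TPM, lies above Csf1 in all 3 libraries, and Igf1r, at 0.22 to 0.31 TPM, lies below Igf1.

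Differences between factor and receptor within a library, on the log2(TPM + 0.1) scale, were chosen after values were seen. Csf1 was below Csf1r by a mean difference of -3.15 ± 0.85, Csf2 was below Csf2ra at -6.89 ± 0.64 and Csf3 was below Csf3r at -8.01 ± 0.54. Igf1 was above Igf1r by 7.16 ± 0.31, Osm above Osmr by 5.81 ± 0.61, Pdgfb above Pdgfrb by 3.72 ± 0.39 and Vegfa above Flt1 by 5.92 ± 0.60. Vegfa was below its co-receptor genes Nrp1, at -2.11 ± 0.29, and Nrp2, at -2.87 ± 0.22. All 9 held in 3 of 3 libraries and exceeded 3 SD. The difference of Vegfa from Kdr, 1.64 ± 0.86, of Osm from Il6st, -1.13 ± 0.60, and of Hbegf from Egfr, 1.17 ± 0.40, did not exceed 3 SD, although each had 1 sign in 3 of 3 libraries. Hbegf, Csf2, Csf3, Osmr, Pdgfrb, Egfr and Flt1 were near or under the pseudocount, so the sizes of all differences that involve them depend on it.

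Related ligands were mostly low. Of 21 ligands of the same families 4 were detected: Vegfb at 12.3 ± 1.02 TPM, Flt3l at 3.75 ± 0.206 TPM, Pdgfc at 3.37 ± 0.637 TPM and Kitl at 2.15 ± 0.627 TPM, and 5 had 0 counts in every library. Vegfb, a VEGF family member that binds Flt1, was near Vegfa in level. Of 8 carrier genes for insulin-like growth factors 1 was detected, Igfbp4 at 7.36 ± 1.34 TPM, and 4 had 0 counts in every library.

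Genes for processing the precursors were detected at 6 of 8. The sheddase Adam17, which releases EGF family ligands and other membrane proteins, stood at 26.3 ± 2.54 TPM, Adam10 at 17.5 ± 2.01 TPM, the proprotein convertase Furin at 15.8 ± 2.24 TPM and Rhbdf2, an iRhom that supports Adam17 maturation, at 12.6 ± 2.22 TPM. Pcsk7 was the lowest detected at 6.04 ± 0.956 TPM. The tetraspanin gene Cd9, named after its values were seen, whose product associates with the membrane form of heparin-binding EGF, stood at 8.07, 8.26 and 3.42 TPM in replicates 1, 2 and 3, with replicate 3 the lowest. The other detected genes of this list, Adam17, Adam10, Furin, Rhbdf2 and Pcsk7, were each lowest in replicate 2 in TPM. As log2 ratios of scaled CPM in replicate 3 over the mean of the others, Cd9 stood at -1.28 and Adam10 at -0.126. Adam17, Furin, Rhbdf2 and Pcsk7 were between -0.0132 and 0.0857.

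Genes for AU-rich element binding and decay were detected at 8 of 8. Zfp36, which encodes tristetraprolin, was the highest at 265, 279 and 180 TPM in replicates 1, 2 and 3, a mean of 241 ± 53.8 TPM (SD, n = 3), and its relatives Zfp36l1 and Zfp36l2 stood at 58.1 ± 3.77 and 41.7 ± 2.33 TPM. Hnrnpd, which encodes the AU-rich binding protein AUF1, stood at 39.4 ± 2.14 TPM, and Rc3h1 was the lowest at 5.26 ± 0.778 TPM. Zfp36 was lowest in replicate 3.

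The pentamer ATTTA on the sense strand, overlaps allowed, was present in the 3′ UTR of the most abundant transcript of 9 of the 10 factors, and in 62.7% of 20936 protein-coding genes. The exception was Igf1, whose Igf1-206 has 0 in 177 bases, whereas Igf1-202 has 18 in 6308 bases, so that with the longest annotated 3′ UTR all 10 hold it, as do 65.5% of genes. Areg has 4 in 253 bases, Osm 6 in 1017, Vegfa 9 in 1865, Hbegf 4 in 1456, Ereg 9 in 3501 and Pdgfb 3 in 1408. At 5 per kb or more were Csf2, Areg, Csf3 and Osm, against 8.23% of genes, and the median gene has 1.18 per kb. The nonamer ATTTATTTA was in 3 factors, with 5 in Csf2 and 1 each in Areg and Vegfa, and in 5.50% of genes.

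Windows of 30 bases from Areg, Osm and Vegfa are printed, each from the first stretch with the most pentamers per window. Pentamers are in capitals, and the letters are from GENCODE M21 transcripts on mm10. The windows lie at chr5:91148371-91148400 (plus strand) for Areg, at chr11:4240952-4240981 (plus strand) for Osm and at chr17:46017601-46017630 (minus strand) for Vegfa.
Areg: aATTTATTTAatATTTAagtgttATTTAtt
Osm: tttataaggcctATTTAtaatgtatATTTA
Vegfa: ttaatATTTAatttcaactATTTAtgagat
The Areg window holds 4 pentamers, of which a pair overlaps, and the Osm and Vegfa windows hold 2 each. The nonamer of Vegfa, itself a pair of overlapping pentamers, is not contained in the printed window. The 3 densest factors, Csf2, Areg and Csf3 at 28.4, 15.8 and 8.97 per kb, were not detected, the detected ones were at 0 to 5.90 per kb, and the undetected Hbegf and Ereg were at 2.75 and 2.57 per kb. A match is a description of the letters and shows neither binding nor decay.

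**Figure D5:**
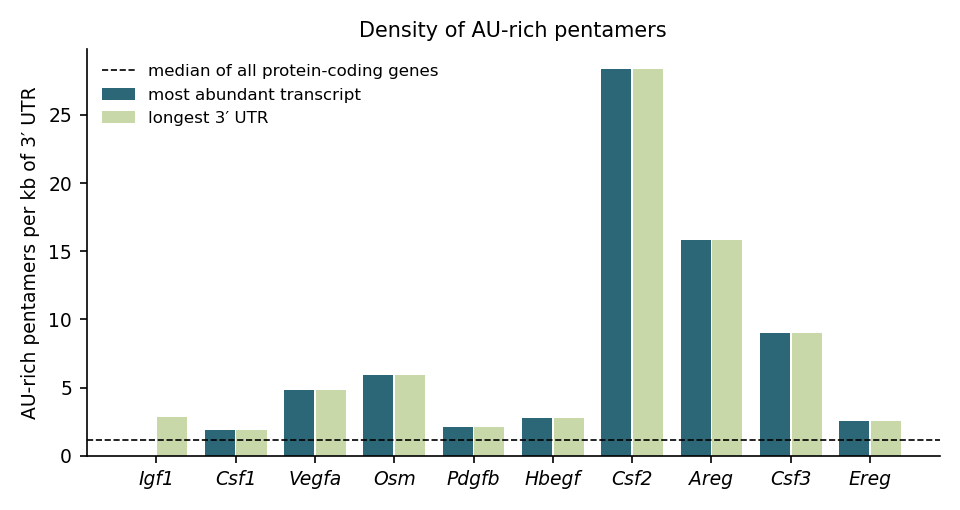
Number of ATTTA pentamers per kb of 3′ UTR for the 10 factors, in the most abundant transcript (dark bars) and in the transcript with the longest 3′ UTR (light bars); the dashed line is the median of all protein-coding genes, 1.18 per kb. Csf2 has the highest density at 28.4 per kb, and Igf1 has 0 in its most abundant transcript and 2.85 in its longest.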

How the data were processed

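Per the text deposited with each library, reads were assigned on mm10 with the GENCODE M21 annotation. The authors deposited expected counts, TPM and credible bounds per gene and transcript, per the file headers, and a second transcript table per library with estimated counts and TPM. Which aligner and quantifier were used, in which versions, and whether counting used strand is not stated in these sources. Rows that name no gene were left out of all sums; their share of the counts was 0.774%, 0.207% and 0.167%, given here and below for replicates 1 to 3.

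The members, the gene lists and the comparison of replicate 3 with the others were chosen with earlier results of these data known. All 10 members were named, and of each list the detected genes were counted, with up to 4 of the highest mean TPM and the lowest detected one named; any receptor of a member could be named. Factor and receptor differences, transcripts other than the main one, promoters, Malat1 and Neat1 were added after values were seen.

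After rounding, the expected counts were given TMM sizes with edgeR 4.0.16 (R 4.3.3), and its dispersions used an intercept alone. Tests and intervals used scipy 1.17.1, numpy 2.4.6 and pandas 2.3.3 in Python 3.11.15, and the figures matplotlib 3.10.9. The chi-square test was tested on simulated data. DESeq2 1.42.0 size factors, library totals, other limits, pseudocounts and filters, the second table and leaving out each replicate were tried. Replicate 1 is the shallowest library and the least precise for low genes. TPM sums over all rows, and 7SL RNA took 63.2%, 64.8% and 58.0% of it, which lowers all other TPM.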

Additional observations from a re-analysis of the deposited data

How the results depend on the processing

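No paired analysis was possible because there is only 1 group. The count of detected factors was 5 of 10, 6 at a limit of 0.1 TPM, 3 at 5 TPM and 4 in the second transcript table, and 5 without any 1 of the libraries. The limit of 1 TPM is stricter in the second table, where the TPM of the median detected gene is lower. Factors called as differing between libraries beyond counting error were 6 of 6 under DESeq2 size factors, library totals and the second table, where 65.6%, 67.9% and 72.8% of all genes were called, and 5 of 10 with no filter on low counts (41.1% of genes), where Hbegf was lost. Without replicate 1, 2 or 3 they were 6, 4 and 4 of 6 (53.2%, 44.3% and 44.2% of genes). Igf1, Csf1 and Osm kept the call under all of these settings. The difference of Csf1 from Vegfa ranged from -0.0864 to 0.62 with 1 library left out, turning sign without replicate 1, and that of Areg from Csf3 was -0.00655 in the second table; the cause was not tested. Vegfa exceeded Osm beyond 3 SD with a pseudocount of 1, in the second table and without replicate 1 or 2. Igf1 over Csf1 was within 3 SD without replicate 2, and Osm over Pdgfb without replicate 2 or 3. TPM in the second table was 0.430 to 0.546 times the first for the detected factors and 0.448 times for the median detected gene. With TPM rescaled to nuclear protein-coding genes the levels were higher, such as 179.9 TPM for Igf1 and 52.8 TPM for Csf1. Factors with fewer than 10 counts on average allow no comparison between libraries.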
